A study of Mus musculus with 5 samples.

Results

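The transcripts of 32 nuclear receptors were examined in mouse liver tumours, as those rows of a deposited table of 22287 genes whose symbol names a nuclear receptor outside bile acid control, the circadian clock, glucocorticoid response and the core hepatocyte factors. All 32 were found in the table. RNA was taken from liver tumours of C57BL/6 mice in 2 wild-type (WT 1 and WT 2) and 3 lnc-CTHCC-/- knockout (KO 1, KO 2 and KO 3) samples. The long non-coding RNA lnc-CTHCC is the deleted gene. Animals of both genotypes had received the carcinogen DEN and the hepatotoxin CCl4 over 5 months, so no untreated or tumour-free liver was part of the comparison. The labels give neither age nor sex, do not describe how the knockout was made, and are silent on whether each sample is a separate animal, so p-values reflect only sample-to-sample spread, part of which could be technical.

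Nuclear receptors are transcription factors, most of which are switched by a small fat-soluble molecule such as a steroid, a thyroid hormone, a retinoid, an oxysterol or a fatty acid. Many of them bind DNA as a pair with a retinoid X receptor (RXR), and they recruit corepressors or coactivators depending on the ligand. In liver they are known for the control of drug metabolism, lipid synthesis, and the handling of cholesterol, vitamin A and thyroid hormone.

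Values are FPKM, in which the fragments of a gene are divided by its length and by the size of the library, so that levels can be compared between genes. The depth of the libraries is unknown. The FPKM of a library summed to between 526229 and 552619, and Alb, the albumin gene, took 14.1% to 17.1% of it. WT 1 had the lowest value of the 5 libraries in 46.7% of all genes tested and in 12 of the 22 receptors tested, and the spread between the WT libraries is given beside each result it touches. Levels of lnc-CTHCC itself were not analysed here, so genotypes are taken from the labels.

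The receptors spanned a wide range of levels. Rxra, the RXR form typical of liver, was the most abundant, with 53.7 and 73.3 FPKM in WT against 65.9, 70.0 and 74.1 FPKM in KO. Next in level stood Nr1h3, which encodes LXR alpha, an oxysterol sensor of lipid metabolism, then Nr2f6, an orphan receptor of the COUP-TF group, Nr1i2, the xenobiotic sensor PXR, and Nr1h2, the widely expressed LXR beta. These 5 had a mean of at least 10 FPKM over the libraries. A further 17 had a mean between 1 and 10 FPKM, and 10 lay under 1 FPKM. The plot of receptor levels shows this order, with the genotypes interleaved on most lines.

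**Figure D1:**
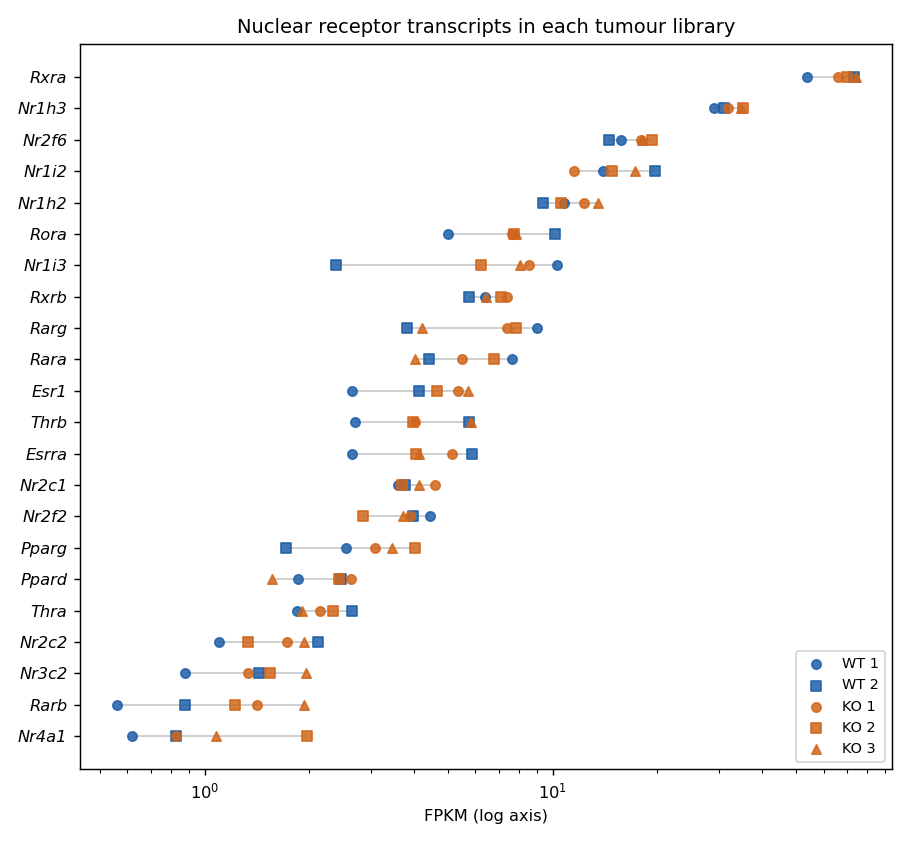
FPKM (log axis) of the 22 nuclear receptors with a mean of at least 1 FPKM, 1 line per gene and 1 symbol per library (blue, WT; orange, KO), with a grey line over the range. Rxra leads at 53.7 to 74.1 FPKM, and Nr1i3 has the widest gap between the WT symbols, at 10.3 and 2.39 FPKM.

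Within each receptor class, 1 or 2 forms made up most of the transcript level. Of the summed FPKM of the 3 RXR genes, Rxra took 88.8% to 91.9% in every library. Nr1h3 took 72.0% to 76.9% of the LXR sum. The retinoic acid receptors, which bind all-trans retinoic acid, were shared between Rara (38.4% to 48.5%) and Rarg (41.4% to 52.2%), with Rarb at 3.25% and 9.66% in WT and at 9.89%, 7.70% and 19.0% in KO. The KO libraries overlapped the WT libraries in that share, since KO 2 lay below WT 2. Of the thyroid hormone receptors, Thrb, the main form in hepatocytes, took 59.5% and 68.4% in WT and 65.3%, 62.9% and 75.4% in KO. The genotypes overlapped in this share too.

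KO was set against WT to ask which receptor transcripts change with the loss of lnc-CTHCC. No receptor passed the test. Rarb (retinoic acid receptor beta), Pparg (the adipogenic fatty acid receptor) and Esr1 (oestrogen receptor alpha) had the largest positive differences on the log2(FPKM + 1) scale, and every KO library lay above both WT libraries. Their KO means were 2.11, 1.65 and 1.54 times the WT means, and by that ratio Nr4a1, at 1.78, stood above Pparg and Esr1, with overlapping genotypes. Nr2f2, the vascular and venous receptor COUP-TFII, was the 1 receptor tested with every KO library below both WT libraries, at 0.832 times the WT mean. In bulk tumours a change in the number of cells of a type and a change in RNA per cell cannot be told apart.

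Values were compared by limma on log2(FPKM + 1), in which a difference is KO minus WT and understates the change of low genes, over 10132 genes with a mean of at least 1 FPKM. Of the 32 receptors, 22 passed this filter, and Rarb and Nr4a1 passed it through KO means above 1 FPKM with WT means below it. Of the 22 none passed an adjusted p of 0.05 (0.00987% of all genes tested did), and their limma adjusted p-values were all 0.999. An unadjusted limma p under 0.05 was reached by 3 receptors, Rarb, Pparg and Esr1, all higher in KO. The background was 3.23% of all genes in either direction, 1.78% higher and 1.45% lower in KO. Means were higher in KO for 18 of 22 receptors, against 61.4% of all genes tested, and the median difference was 0.15 against 0.05 for all genes. KO and WT values did not overlap in 7 receptors (background 15.1%), of which 6 were above (background 9.78%) and 1 below (background 5.29%).

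After median-ratio rescaling of the libraries only Rarb and Esr1 were without overlap, while the background rose to 18.3% of all genes, so the separation of the other 5 receptors depends on the scale. The 3 receptors with an unadjusted p under 0.05 became 0 without KO 3 (background 2.81%), 1 without KO 2 (Rarb, background 2.91%), and 5 without WT 2, where Rora, Esrra and Thrb joined Rarb and Esr1 and the background rose to 11.3%. Without WT 1 they were Pparg and Nr1i3, with a background of 9.73%. The plot of differences shows 95% intervals that include 0 for 19 of the 22.

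**Figure D2:**
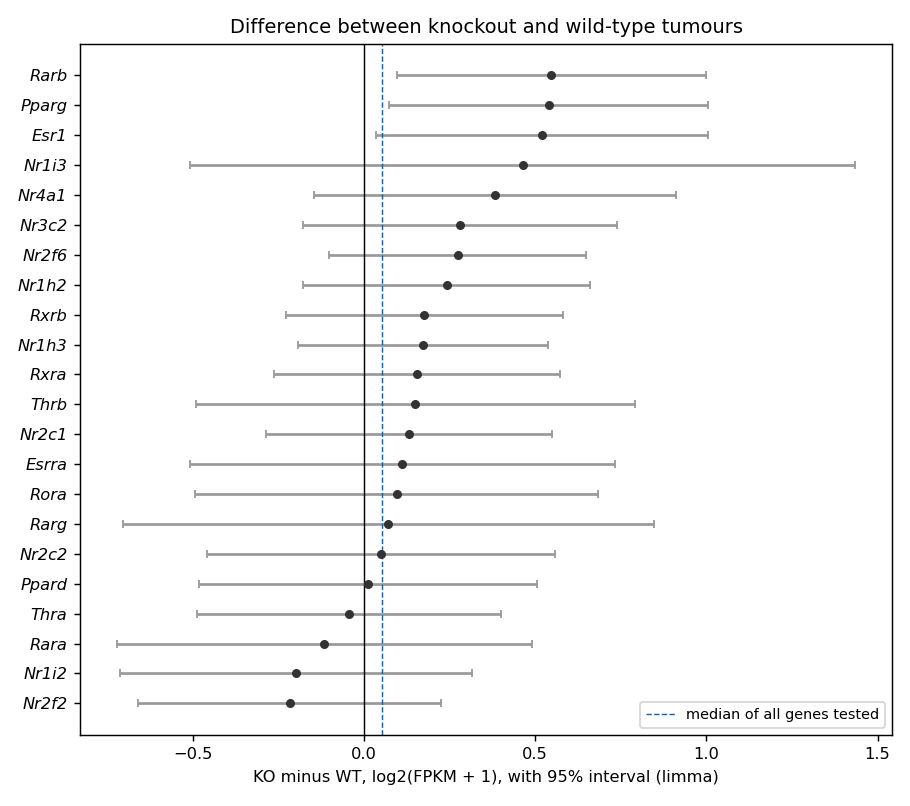
Differences (KO minus WT, log2(FPKM + 1) units) for the 22 receptors tested (points), with 95% intervals from limma (bars), a solid line at 0 and a dashed line at the median of all genes tested (0.05). The intervals of Rarb, Pparg and Esr1 lie above 0, before any adjustment for the number of genes, and that of Nr1i3 is the widest.

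Rarb encodes the retinoic acid receptor whose own gene is a textbook target of retinoic acid. It had 0.56 and 0.88 FPKM in WT against 1.41, 1.22 and 1.93 FPKM in KO. WT 1 was the lowest library and KO 3 the highest, and the genotypes did not overlap. WT averaged 0.720 ± 0.226 FPKM (SD, n = 2), and KO averaged 1.52 ± 0.368 FPKM (SD, n = 3). The log2 difference was 0.55 (SE 0.198, 95% interval 0.096 to 0.998, limma adjusted p = 0.999). In the authors' deposited table its log2 fold change was 1.08 with a false discovery rate of 0.526. Without WT 1 the difference was 0.41, with WT 2 assumed to vary like the KO libraries, and without KO 3 it was 0.43.

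In GENCODE vM21 (GRCm38, the assembly of mm10) Rarb lies on chromosome 14 from 16430839 to 16819156 on the minus strand, and 1793 of its exonic bases are shared with Top2b, a topoisomerase gene on the opposite strand. No source used here says whether the authors counted by strand, so reads of both genes could have been mixed. Top2b had 1.73 and 2.87 FPKM in WT against 2.95, 2.85 and 3.09 FPKM in KO, lowest in WT 1 as Rarb was, and its part in the Rarb values was not tested.

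The stretch before the RefSeq start of Rarb is shown because it was the only one among the 30 receptors with a RefSeq promoter (all but Thra and Hnf4g) to hold a DR5 pair, the arrangement known from retinoic acid response elements, searched as 2 half-sites in the same orientation with 5 bases between them. The half-site was AGGTCA, or one of its variants spelled AGTTCA, or the variant with GGGTCA, or else the variant with GGTTCA, and both strands of 300 bases were searched. Such a pair occurred in 32 of 32851 promoters of that length (0.0974%). Of the 190 genes with a promoter in the receptor, cofactor, target and marker lists, the other one was Cyp26a1, which encodes the enzyme that breaks down retinoic acid. The lines below give 120 bases 5′ to 3′ up to the base before the start, from RefSeq on GRCm38.p6, at chr14:16575477-16575596 (minus strand) for Rarb and chr19:37697688-37697807 (plus strand) for Cyp26a1, with the pair in capitals.
Rarb: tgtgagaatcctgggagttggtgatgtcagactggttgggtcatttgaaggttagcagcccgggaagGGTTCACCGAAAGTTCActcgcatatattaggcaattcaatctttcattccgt
Cyp26a1: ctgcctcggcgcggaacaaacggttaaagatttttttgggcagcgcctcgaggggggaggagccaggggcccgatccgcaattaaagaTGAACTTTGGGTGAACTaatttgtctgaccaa

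The pair ran from base -53 to -37 before the Rarb start and from base -32 to -16 before the Cyp26a1 start, where it lies on the opposite strand and reads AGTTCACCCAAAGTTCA. This Rarb start lies inside the annotated span of the gene. Cyp26a1 had 1.21 and 2.15 FPKM in WT against 1.86, 6.53 and 1.99 FPKM in KO, so that only KO 2 stood above WT 2. Its log2 difference of 0.60 did not pass (limma adjusted p = 0.999) and was 0.15 without KO 2. With spacings of 0 to 4 bases no promoter of the 30 receptors held a pair, and 0.213%, 0.222%, 0.268%, 0.0396% and 0.0822% of all promoters did.

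The other retinoic acid receptors did not separate the genotypes. Rara had 7.66 and 4.42 FPKM in WT against 5.47, 6.78 and 4.02 FPKM in KO. Rarg, a form known from epithelia, had 8.99 and 3.81 FPKM in WT against 7.38, 7.85 and 4.21 FPKM in KO. Both were highest in WT 1, next in KO 2, and low in WT 2 and KO 3, a pattern that runs across the genotypes. The log2 differences were -0.12 (95% interval -0.72 to 0.49) and 0.07 (-0.70 to 0.85).

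Pparg encodes a fatty acid receptor that is low in healthy hepatocytes and known from fat, macrophages and fatty liver. It had 2.55 and 1.71 FPKM in WT against 3.09, 4.03 and 3.45 FPKM in KO, all 3 KO libraries above WT 1. With means of 2.13 ± 0.594 FPKM (SD, n = 2) and 3.52 ± 0.474 FPKM (SD, n = 3) the log2 difference was 0.54 (SE 0.205, 95% interval 0.073 to 1.005, limma adjusted p = 0.999). Without WT 2 the difference was 0.34. The authors' deposited table gives Pparg a log2 fold change of 0.726. The gene lies on chromosome 6 from 115360951 to 115490399. Ppard, the more widely expressed PPAR delta, had 1.86 and 2.46 FPKM in WT against 2.63, 2.43 and 1.56 FPKM in KO, and its log2 difference of 0.01 (95% interval -0.48 to 0.51) was smaller than the spread within either genotype.

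Esr1 encodes oestrogen receptor alpha, which hepatocytes express. It had 2.65 and 4.14 FPKM in WT against 5.34, 4.64 and 5.71 FPKM in KO, with the gap between KO 2 and WT 2 smaller than that between the WT libraries. Means were 3.40 ± 1.05 FPKM (SD, n = 2) and 5.23 ± 0.543 FPKM (SD, n = 3), and the log2 difference was 0.52 (SE 0.213, 95% interval 0.036 to 1.005, limma adjusted p = 0.999). The authors' deposited table gives a log2 fold change of 0.623 with a false discovery rate of 0.724. Without WT 1 the difference was 0.27. Esr1 lies on chromosome 10 from 4611593 to 5005614. Nr3c2, the mineralocorticoid receptor that binds aldosterone, had 0.88 and 1.43 FPKM in WT against 1.33, 1.54 and 1.95 FPKM in KO. KO 1 lay below WT 2, and the log2 difference of 0.28 did not pass (limma adjusted p = 0.999). It was 0.09 without WT 1 and 0.47 without WT 2.

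Most markers of endothelial cells, stellate cells, macrophages and cholangiocytes also had higher means in KO, and those of lymphocytes had lower sums in most KO libraries. Of all genes tested, 61.4% had a higher mean on the log2 scale in KO. The marker counts given here compare mean FPKM instead, over all listed markers, tested or not, so that share is not measured alike. Of 10 endothelial markers 9 had a higher mean in KO, and their summed FPKM was 80.6 and 71.1 in WT and 117, 77.6 and 88.7 in KO. Of 11 stellate cell and fibroblast markers 9 were higher, with sums of 99.4 and 132 in WT and 114 to 171 in KO. Of 10 macrophage and Kupffer cell markers 8 were higher, with sums of 120 and 138 in WT and 93.3 to 192 in KO. Of 8 cholangiocyte markers 6 were higher, with sums of 298 and 521 in WT and 245 to 464 in KO. Of 7 neutrophil markers 3 were higher, with sums of 6.72 and 6.32 in WT and 4.92 to 7.52 in KO. In each of these lists the KO sums overlapped the WT sums. No marker in these lists was listed at 0 in all libraries. The sums of 10 T and NK cell markers were 7.23 and 3.81 in WT and 1.69 to 4.23 in KO, and those of 8 B and plasma cell markers were 174 and 492 in WT and 38.6 to 133 in KO. All 10 T and NK cell markers and 6 of the 8 B and plasma cell markers had a lower mean in KO. Of the 8 hepatocyte markers 6 were lower in KO, and their sum, of which Alb is the main part, was 129000 and 99000 in WT and 110000 to 111000 in KO. The part of these cells in the Rarb, Pparg and Esr1 values was not tested.

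Of the 10 receptors with a mean of at least 5 FPKM, 3 did not overlap between genotypes. The share was 14.3% of all genes at that level, in either direction. In these 3 receptors KO lay above both WT libraries, by small margins. Nr2f6 had 15.8 and 14.5 FPKM in WT against 18.0, 19.4 and 18.1 FPKM in KO, with a log2 difference of 0.27 (95% interval -0.10 to 0.65). Nr1h3 had 29.0 and 31.1 FPKM in WT against 31.9, 35.2 and 34.8 FPKM in KO, with a difference of 0.17 (-0.19 to 0.54). Rxrb, the broadly expressed RXR beta, had 6.37 and 5.73 FPKM in WT against 7.37, 7.08 and 6.45 FPKM in KO, with a difference of 0.18 (-0.23 to 0.58). The nearest libraries were KO 1 and WT 2 for Nr1h3 and KO 3 and WT 1 for Rxrb, and both pairs lay close together. The genotypes overlapped in these 3 genes after median-ratio rescaling. Nr1h2 had 10.8 and 9.40 FPKM in WT against 12.3, 10.6 and 13.5 FPKM in KO, where KO 2 lay below WT 1, and its difference was 0.24 (-0.18 to 0.66). Nr2f6 shares 1622 of its 2983 exonic bases with Ocel1 on the opposite strand. Ocel1 was at 1.77 to 2.01 FPKM in the 5 libraries, and its part in the Nr2f6 values was not tested.

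Nr2f2 had the opposite order, with 4.43 and 3.97 FPKM in WT against 3.90, 2.86 and 3.72 FPKM in KO. KO 1 lay just below WT 2, KO 2 was the lowest, and the log2 difference of -0.22 did not pass (limma adjusted p = 0.999). COUP-TFII is known from venous endothelium. Most endothelial markers had higher means in KO, with overlapping sums as given above, and the part of these cells in the Nr2f2 values was not tested. Nr2f1, a relative of Nr2f2, was at 0.07 to 0.22 FPKM in all libraries. The testicular receptors, orphans that repress or activate through direct repeats, did not separate the genotypes: Nr2c1 had a log2 difference of 0.13 and Nr2c2 of 0.05. Nr2c2 shares 4590 of its 14935 exonic bases with Mrps25 on the opposite strand, so its 1.10 to 2.12 FPKM are uncertain.

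The xenobiotic receptors, which sense drugs and bile acids and induce cytochrome P450 genes, overlapped between genotypes. Nr1i2 had 13.9 and 19.7 FPKM in WT against 11.5, 14.8 and 17.2 FPKM in KO. Nr1i3, which encodes the constitutive androstane receptor CAR, had 10.3 and 2.39 FPKM in WT against 8.56, 6.21 and 8.04 FPKM in KO. All 3 KO libraries lay between the WT libraries, which stood 1.74 apart on the log2 scale, the largest gap among the receptors. The log2 difference of Nr1i3 was 0.46 (95% interval -0.51 to 1.44) with all libraries, 1.33 without WT 1 (limma adjusted p = 0.106) and -0.41 without WT 2 (limma adjusted p = 0.493), so its direction rests on the WT library kept. Nr1i3 shares 3304 of its 4414 exonic bases with Tomm40l on the opposite strand, so the Nr1i3 values are uncertain. Tomm40l had 6.26 and 7.14 FPKM in WT against 5.32 to 5.55 FPKM in KO. The part of Tomm40l in the Nr1i3 values was not tested.

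Thrb, Esrra (oestrogen-related receptor alpha) and Rora (ROR alpha) act in energy and lipid metabolism, and the direction of their differences turned when WT 1 was left out. Thrb had 2.70 and 5.74 FPKM in WT against 4.03, 3.96 and 5.82 FPKM in KO. Esrra, a partner of the coactivator PGC-1 in mitochondrial gene control, had 2.65 and 5.86 FPKM in WT against 5.12, 4.04 and 4.13 FPKM in KO. Rora had 5.00 and 10.1 FPKM in WT against 7.62, 7.73 and 7.85 FPKM in KO. In all 3 genes WT 1 was the lowest library, and in Esrra and Rora WT 2 was the highest, so that the KO libraries lay inside the WT range. The KO values of Rora were within 0.04 of each other on the log2 scale, the tightest among the receptors tested. The log2 differences were 0.15, 0.11 and 0.10. Without WT 1 they were -0.28, -0.34 and -0.35, and without WT 2 they were 0.58, 0.57 and 0.54 (limma adjusted p = 0.437, 0.423 and 0.423).

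Thra, the thyroid hormone receptor known from heart and brain, had 1.84 and 2.65 FPKM in WT against 2.14, 2.34 and 1.90 FPKM in KO, with a log2 difference of -0.04. Its 3′ end overlaps Nr1d1, the clock repressor REV-ERB alpha, by 263 exonic bases on the opposite strand. Nr1d1 had 26.4 and 6.54 FPKM in WT against 4.46 to 8.24 FPKM in KO. WT 1, highest in Nr1d1, was the lowest library in Thra.

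The plot of WT gaps sets the distance between the WT libraries beside the KO difference. The difference exceeded the gap in 10 of the 22 receptors, and in 25.5% of all genes tested. Median gaps between WT 1 and WT 2 were 0.38 for the receptors and 0.31 for all genes on the log2 scale, and the median sizes of the KO difference were 0.17 and 0.13. In the other 12 receptors the WT libraries differed more from each other than the genotypes did.

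**Figure D3:**
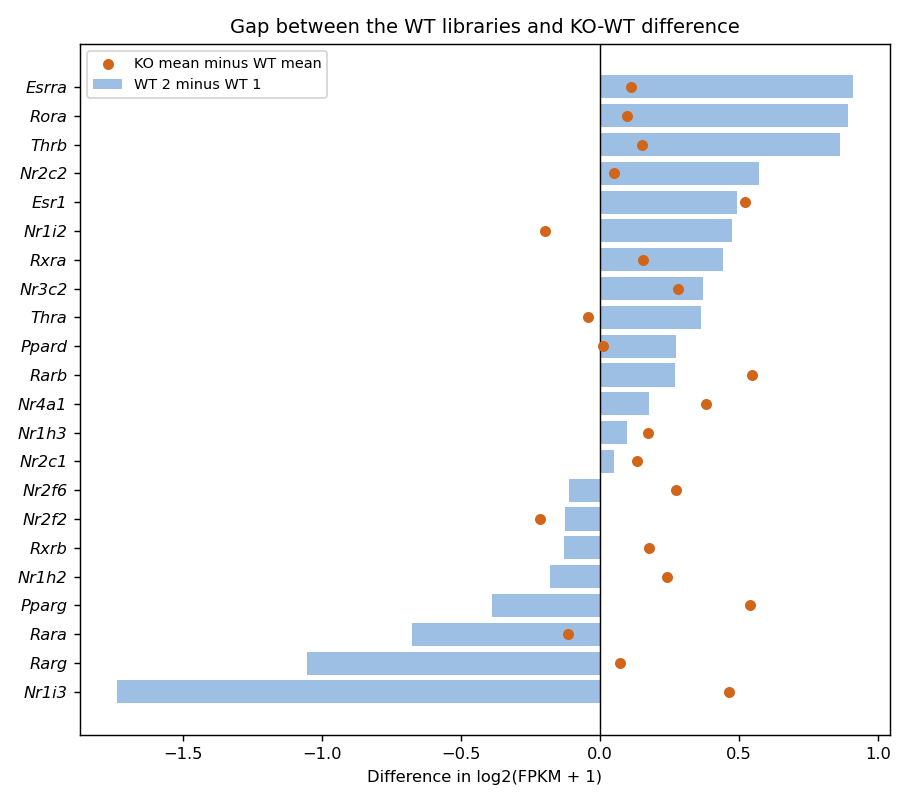
WT 2 minus WT 1 (bars) and KO mean minus WT mean (points) on the log2(FPKM + 1) scale for the 22 receptors tested, sorted by the bar. The bar of Nr1i3 reaches -1.74, those of Esrra, Rora and Thrb reach 0.91, 0.89 and 0.86, and the points of these 4 genes lie within their bars or on the other side of 0.

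The NR4A receptors are immediate early genes that act without a known ligand. Nr4a1, the most abundant, had 0.62 and 0.83 FPKM in WT against 0.83, 1.97 and 1.08 FPKM in KO. KO 1 equalled WT 2 and KO 2 stood apart as the highest, and the log2 difference was 0.38 (limma adjusted p = 0.999). Nr4a3 had 0.12 and 0.08 FPKM in WT against 0.06, 0.02 and 0.01 FPKM in KO, lower in every KO library but close to 0 throughout. In the authors' deposited table it had a log2 fold change of -1.74. Nr4a2 was at 0.09 to 0.18 FPKM.

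Receptors under a mean of 1 FPKM were not tested, except in an alternative without the filter. That fit took in 31 receptors, and those with an unadjusted p under 0.05 (background 4.15%) were Rarb, Pparg and Nr4a3, without Esr1. Rxrg, the RXR form known from muscle and brain, had 0.36 and 0.77 FPKM in WT against 0.97, 0.60 and 1.41 FPKM in KO, and KO 3 was the highest. Nr6a1, the germ cell nuclear factor, had 0.36 and 0.90 FPKM in WT against 0.47 to 0.58 FPKM in KO. Vdr, the vitamin D receptor, was at 0.09 to 0.25 FPKM. Esrrb was at 0.04 to 0.16 FPKM, Hnf4g at 0.05 to 0.12 FPKM and Esrrg at 0.00 to 0.02 FPKM. Nr2e3, a photoreceptor factor, was listed at 0 in all 5 libraries. At 2 decimals and unknown depth no difference between genotypes could be read from these levels.

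**Figure D4:**
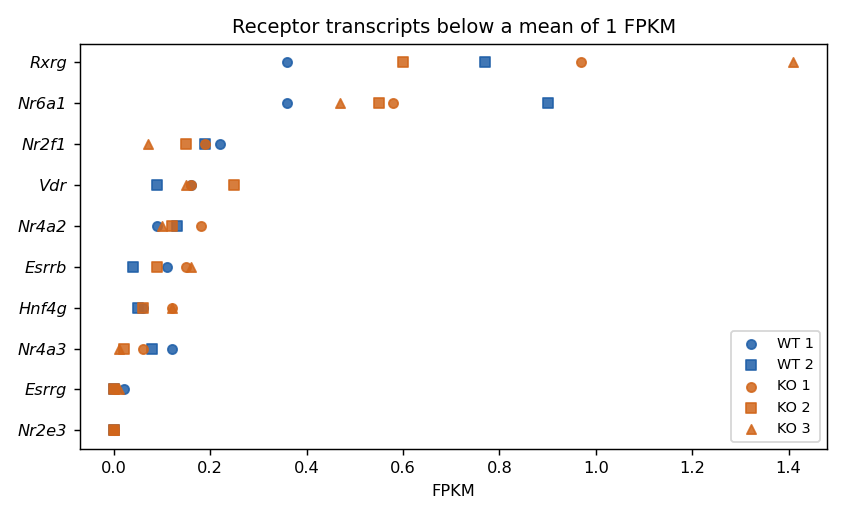
FPKM (linear axis) of the 10 receptors with a mean under 1 FPKM, 1 symbol per library (blue, WT; orange, KO). Rxrg and Nr6a1 lie between 0.36 and 1.41 FPKM, and the other 8 lie at or below 0.25 FPKM.

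The cofactors through which receptors act were compared from lists. Of 14 coactivators tested 9 had a higher mean in KO, and of 9 corepressors 5 did, with medians of 0.07 in both lists against 0.05 for all genes, and none passed. Tbl1xr1, a subunit of a corepressor complex, had 2.92 and 3.85 FPKM in WT against 4.22, 8.92 and 5.17 FPKM in KO (limma adjusted p = 0.999). Ncor1 had 8.38 and 18.4 FPKM in WT against 14.7 to 17.5 FPKM in KO, again with WT 1 low. Carm1, an arginine methyltransferase coactivator, had 9.06 and 7.14 FPKM in WT against 9.63 to 12.0 FPKM in KO. The coactivators Ncoa1 and Ppargc1a had log2 differences of -0.003 and -0.24.

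Target genes of the receptors did not pass the test either, in any list. Of 16 xenobiotic receptor targets 8 were higher and 8 lower in mean (median -0.06). Cyp3a11, the main PXR target, had 450 and 560 FPKM in WT against 159, 171 and 320 FPKM in KO, every KO library below WT. Its log2 difference was -1.28 (limma adjusted p = 0.822). Abcb1a, a drug efflux pump, had 6.34 and 6.06 FPKM in WT against 3.24, 3.19 and 3.98 FPKM in KO (limma adjusted p = 0.999). Alas1, the first enzyme of haem synthesis, was higher in each KO library, at 205 to 270 FPKM against 152 and 170 (limma adjusted p = 0.999). Cyp2b10, the CAR target, had 0.57 and 0.73 FPKM in WT against 0.20, 0.04 and 0.37 FPKM in KO, and was below the filter. Targets of the same receptors thus stood on both sides of WT.

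Of 14 LXR targets 8 were higher and 6 lower (median 0.04). Pltp, which transfers phospholipid between lipoproteins, had 9.98 and 7.75 FPKM in WT against 12.2, 13.1 and 13.4 FPKM in KO (limma adjusted p = 0.999). The sterol exporters Abca1 and Abcg1 had log2 differences of 0.16 and 0.15, and Srebf1, the driver of fatty acid synthesis, of 0.13. In the retinoid list 10 of 12 had a higher mean in KO (median 0.17), against 61.4% of all genes tested (median 0.05). Only Lrat of these 12 was without overlap between genotypes (8.33%, background 15.1%). Lrat, which stores vitamin A as esters and marks stellate cells, had 0.87 and 0.98 FPKM in WT against 1.71, 1.35 and 1.58 FPKM in KO (limma adjusted p = 0.999), passing the filter through KO.

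In the thyroid hormone list 8 of 12 were lower (median -0.09). Dio1, the deiodinase that activates thyroid hormone, had 17.2 and 27.8 FPKM in WT against 15.3, 9.40 and 11.8 FPKM in KO (limma adjusted p = 0.999). Thrsp, a lipogenic target, had 72.0 and 260 FPKM in WT against 35.7, 89.3 and 54.8 FPKM in KO, and overlapped. Its log2 difference was -2.20 without WT 1 and -0.36 without WT 2. In the PPAR list 9 of 13 were higher (median 0.09), and Hilpda, a lipid droplet protein, had 5.41 and 4.80 FPKM in WT against 7.05, 15.9 and 7.98 FPKM in KO (limma adjusted p = 0.999). Plin2, another droplet protein, had a log2 difference of 0.25, and Pdk4 had 1.69 and 13.1 FPKM in WT against 2.24 to 15.8 FPKM in KO. Oestrogen-related receptor targets were lower in 8 of 11 (median -0.04), and vitamin D and oestrogen receptor targets in 3 of 5 (median -0.11).

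**Figure D5:**
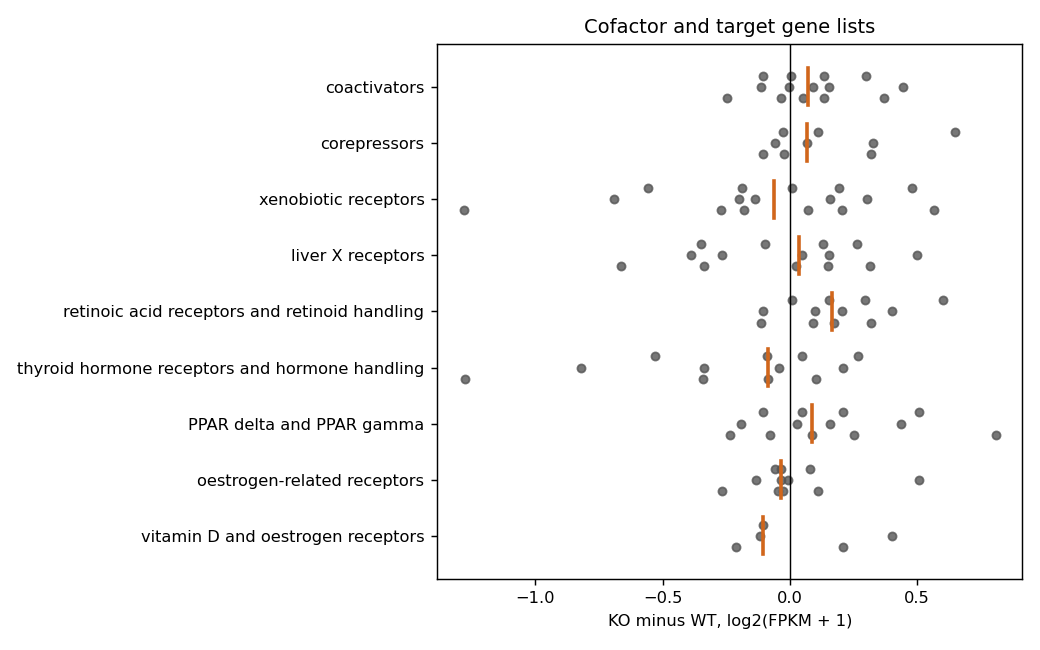
Differences (KO minus WT, log2(FPKM + 1) units) for each tested gene (grey points) of 2 cofactor and 7 target lists, with the list median as an orange bar and a line at 0. Medians lie between -0.11 and 0.17, and single genes such as Cyp3a11 (-1.28), Thrsp (-1.28) and Hilpda (0.81) lie far from them.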

How the data were processed

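RNA sequencing of 5 tumour libraries was read from 1 deposited table. Per the file headers, the authors gave FPKM per library (rounded to 2 decimals), their mean FPKM per genotype, a log2 fold change, and a p-value with a false discovery rate. Build mm10 and the tools HISAT2, StringTie, limma, DESeq2 and bcl2fastq 2.0 are listed without roles, per the submitters' processing notes. No source used here gives the annotation or the strand setting.

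FPKM were transformed to log2(FPKM + 1), and 10132 of 22287 genes with a mean of at least 1 FPKM were tested by limma 3.58.1 in R 4.3.3 (two-sided, variance trend, no covariate, with 3 residual degrees of freedom), with Benjamini-Hochberg adjustment over all of them at 0.05. The fit was checked on simulated data with changes larger than any receptor difference found here, so the check does not cover differences of that size. No permutation test was run, since the smallest exact p for 2 against 3 libraries is 0.1. Named were all 32 receptors, up to 4 genes per cofactor or target list by smallest p, and 13 fixed cofactors and targets, and not every one of those is described. 1 gene of the lists is not reported here. Members and lists were chosen with earlier results of these data known. Positions are 1-based, from GENCODE vM21. Figures used matplotlib 3.10.9 in Python 3.11.15.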

Additional observations from a re-analysis of the deposited data

How the results depend on the processing

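No receptor passed an adjusted p of 0.05 under any of the 15 alternatives, which were other pseudocounts, filters, scalings and variance models, a block for the replicate number, and the removal of each library in turn. The number of all genes past the threshold, 1 with all libraries, was 0 with quantile normalization, median-ratio or common-sum rescaling, a filter at 5 FPKM or none, or a pseudocount of 5, and 3 with robust empirical Bayes. It was 0 to 17 with 1 library left out. Receptors with an unadjusted p under 0.05, 3 with all libraries (3.23% of all genes), numbered 0 with a mean FPKM of at least 5 (10 receptors tested, 2.87%). That filter removed Rarb, Pparg and Esr1, so this count says nothing about them. With median-ratio rescaling (4.04%) or quantile normalization (4.22%) they numbered 2, without Pparg. With 1 KO library left out they numbered 0 to 2 (1.95% to 2.91%). Receptors without overlap, 7 with all libraries, numbered 3 with a mean FPKM of at least 5 (14.3% of all genes) and 2 with median-ratio rescaling (18.3%). They numbered 7 to 19 with 1 library left out, where fewer libraries make overlap rarer. The share of all genes without overlap was then 21.2% to 28.5% without 1 KO library, 55.5% without WT 1 and 62.1% without WT 2.

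The replicate block leaves KO 3 without a partner and 1 residual degree of freedom. With it 62 genes passed, and 0 receptors had an unadjusted p under 0.05 (3.46% of all genes did). The differences of Cyp3a11 (-1.60, limma adjusted p = 1.19e-06) and Thrsp (-1.26, limma adjusted p = 0.00102) were among those that passed. The numbers are not known to pair the samples. Deviations from the genotype means cannot decide this, since those of the 2 WT libraries mirror each other. Across genes they correlated at 0.09 for WT 1 with KO 1 and -0.24 for WT 2 with KO 2. For the crossed pairs the values were 0.24 (WT 1 with KO 2) and -0.09 (WT 2 with KO 1). The sign turned with the block for Rara (0.05), Thra (0.008), Nr2c2 (-0.024), Ncoa1 (0.031) and Igf1 (-0.16). It also turned for Ppard with median-ratio rescaling (-0.029) and quantile normalization (-0.05), for Nr2c2 with quantile normalization (-0.012), and for Ncoa1 with a pseudocount of 0.1 (0.019) or rescaling to a common sum (0.013). The cause was not tested.

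Of the 22 receptors, 11 kept their sign under every alternative run. Nr4a1 is among them, but without KO 2, its highest library, it fell below the filter and had no value. With 1 library left out, the log2 difference ranged from -0.44 to 0.039 for Nr1i2, -0.41 to 1.33 for Nr1i3, -0.066 to 0.38 for Rxra, -0.45 to 0.22 for Rara, -0.46 to 0.60 for Rarg, -0.23 to 0.14 for Thra, -0.28 to 0.58 for Thrb, -0.13 to 0.17 for Ppard, -0.34 to 0.57 for Esrra, -0.24 to 0.34 for Nr2c2 and -0.35 to 0.54 for Rora. Among cofactors and targets it ranged from -0.28 to 0.59 for Abca1, -0.064 to 0.33 for Srebf1, -0.68 to 1.70 for Pdk4, -0.20 to 0.84 for Ncor1, -0.41 to 0.41 for Ncoa1, -1.38 to 0.05 for Fasn, -0.008 to 0.43 for Cpt1a, -0.036 to 0.29 for Gps2, -0.61 to 0.072 for Cycs, -0.56 to 0.14 for Cyp27a1, -0.16 to 0.81 for Igf1 and -0.50 to 0.26 for Cyp2r1. The median difference of the receptors, 0.15 against 0.05 for all genes, was 0.12 against -0.07 without WT 1 and 0.22 against 0.16 without WT 2. Means were higher in KO for 18 of 22 receptors with all libraries, for 13 of 22 without WT 1 and for 18 of 22 without WT 2. Without KO 1, KO 2 and KO 3 the counts were 16 of 22, 15 of 21 and 19 of 22. Depth is unknown, so levels under 1 FPKM have no stated precision.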
